A study of Mus musculus with 4 samples.

Results

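The hairpins mmu-mir-191, mmu-mir-425, mmu-mir-21a, mmu-mir-22, mmu-mir-26a, mmu-mir-148a, mmu-mir-186 and mmu-mir-181a, written miR-191 and so on below, give miRNAs that are made in many tissues and not in a single cell type. The 8 hairpins were chosen by name, and reads of at least 18 nt whose annotation held only these hairpins were summed per hairpin over gene copies. All 8 were found among 389 miRNA hairpin labels, in 117 distinct sequences and 80616 reads. The libraries came from C57BL mice: 2 control libraries, from animals left alone apart from feeding and cage care, and 2 libraries labelled Mdd, from animals given random daily stressors such as cage tilt, damp bedding, strobe light, restraint and isolation (a protocol used to give mice depressive-like behaviour). The question was whether stress of this kind alters small RNA in sperm. Per the labels, RNA was taken from sperm with TRIzol, whereas the tissue and cell type fields read testis and testicular cells. The age of the mice, the number of animals per library and whether the replicates came from separate animals are not given in the labels. Any p-value here therefore reflects the spread between libraries alone, and that spread may be technical.

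A miRNA is cut from a hairpin precursor, first in the nucleus by Drosha and then in the cytoplasm by Dicer, which leaves a 5p and a 3p arm. One arm is usually kept in an Argonaute protein, where its seed pairs with messenger RNAs and lowers their output. The ends of the kept arm can vary: a shift of the 5′ end changes the seed, while the 3′ end can be trimmed, or extended with U or A by terminal nucleotidyl transferases. Such variants are called isomiRs.

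The sequences that carry most of the reads are the main arms below, given 5′ to 3′ as the RefSeq mature miRNA (GRCm38.p6), with the seed, bases 2 to 8, in capitals. All 8 hairpins matched RefSeq. The seeds all differ from one another, so no 2 members belong to the same seed family.
miR-191-5p: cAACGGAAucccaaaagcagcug
miR-425-5p: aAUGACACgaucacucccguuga
miR-21a-5p: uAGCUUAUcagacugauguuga
miR-22-3p: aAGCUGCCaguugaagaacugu
miR-26a-5p: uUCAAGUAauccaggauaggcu
miR-148a-3p: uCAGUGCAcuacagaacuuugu
miR-186-5p: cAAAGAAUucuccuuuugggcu
miR-181a-5p: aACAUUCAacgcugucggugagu

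In GRCm38.p6 with GENCODE annotation, Mir191 lies at chr9:108568319-108568392 and Mir425 at chr9:108568777-108568861, both on the plus strand in an exon of the long non-coding RNA 4833445I07Rik and 384 bases apart. Mir21a (chr11:86584067-86584158, minus strand) overlaps an exon of Vmp1, and Mir22 (chr11:75463716-75463810, plus strand) lies in an exon of its host transcript Mir22hg. miR-26a comes from 2 hairpins, Mir26a-1 (chr9:119031796-119031885) in an intron of Ctdspl and Mir26a-2 (chr10:126995530-126995613) overlapping an exon of Ctdsp2, both on the plus strand. miR-181a also comes from 2 plus-strand hairpins, Mir181a-1 (chr1:137966455-137966541) in an exon of A430106G13Rik and Mir181a-2 (chr2:38852735-38852810) in an intron of Nr6a1 on the opposite strand. Mir186 (chr3:157544279-157544349, plus strand) lies in an intron of Zranb2, and Mir148a (chr6:51269812-51269910, minus strand) overlaps no annotated gene. The 5p arm is the same in both copies of miR-26a and of miR-181a, so their copies cannot be told apart by those reads.

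Depth differed between the libraries. They held 12845403 to 24112532 reads, of which 71902 and 263748 in control 1 and 2 and 198947 and 94011 in Mdd 1 and 2 were miRNA reads of at least 18 nt. Reads of 15 to 17 nt, which were left out, made up 24.4% and 27.0% of all reads in the control libraries and 1.18% and 1.27% in the Mdd libraries, so the length profile of the libraries differed along with the groups. Its part in the comparisons of levels, 3′ ends and tails was not tested. Reads were amplified: the usual number of copies of a genome-matched sequence was 7 and 10 in the control libraries and 44 and 7 in the Mdd libraries, so reads are not independent molecules and intervals cover counting error only. Levels below are CPM, counts scaled to the same total of these miRNA reads, in the order control 1, control 2, Mdd 1, Mdd 2.

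miR-191 was the most abundant member, the third label of all by mean level, and the other members ranked from 9 to 275. miR-191 stood at 40347, 37009, 34421 and 61344 CPM, from 2901, 9761, 6848 and 5767 reads. The Mdd 2 library was the highest and Mdd 1 the lowest, so the groups overlapped. miR-22 followed at 23310, 42889, 17472 and 21583 CPM, miR-21a at 15215, 42290, 13667 and 11796 CPM, and miR-26a at 15243, 36141, 8952 and 10488 CPM. In each of these the control 2 library was the highest by far and both Mdd libraries lay below both controls.

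The remaining members were lower. miR-181a, known for its part in lymphocyte development, stood at 5174, 7776, 5243 and 6957 CPM, with overlapping groups. miR-425, the neighbour of miR-191, stood at 5424, 4709, 2755 and 7031 CPM, with the Mdd libraries on both sides of the controls. miR-148a, which is abundant in liver and many epithelia, was at 195, 827, 161 and 1468 CPM, the highest value again in Mdd 2. miR-186 had 9 and 3 reads in the control libraries and 0 in both Mdd libraries, where a count of 0 allows up to 3 reads, or 15.1 and 31.9 CPM. With that limit multiplied by the usual copies it is 663 and 223 CPM, above the level in either control, so a difference in miR-186 was not detectable at this depth. The label of a broadly abundant set therefore did not hold for miR-148a and miR-186 in these libraries.

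The mean levels were 43280 CPM for miR-191, 26313 for miR-22, 20742 for miR-21a, 17706 for miR-26a, 6287 for miR-181a, 4980 for miR-425, 663 for miR-148a and 34.1 for miR-186. Each read was taken as 1 copy of a mature miRNA sequence, so no correction for length was made. Since reads were amplified, this is an order of reads and not of molecules. The ranges over the libraries overlapped between neighbours from miR-191 to miR-26a and between miR-181a and miR-425, and did not overlap at the other steps of this order. Together the 8 hairpins took 10.5%, 17.2%, 8.27% and 12.1% of the miRNA reads.

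**Figure D1:**
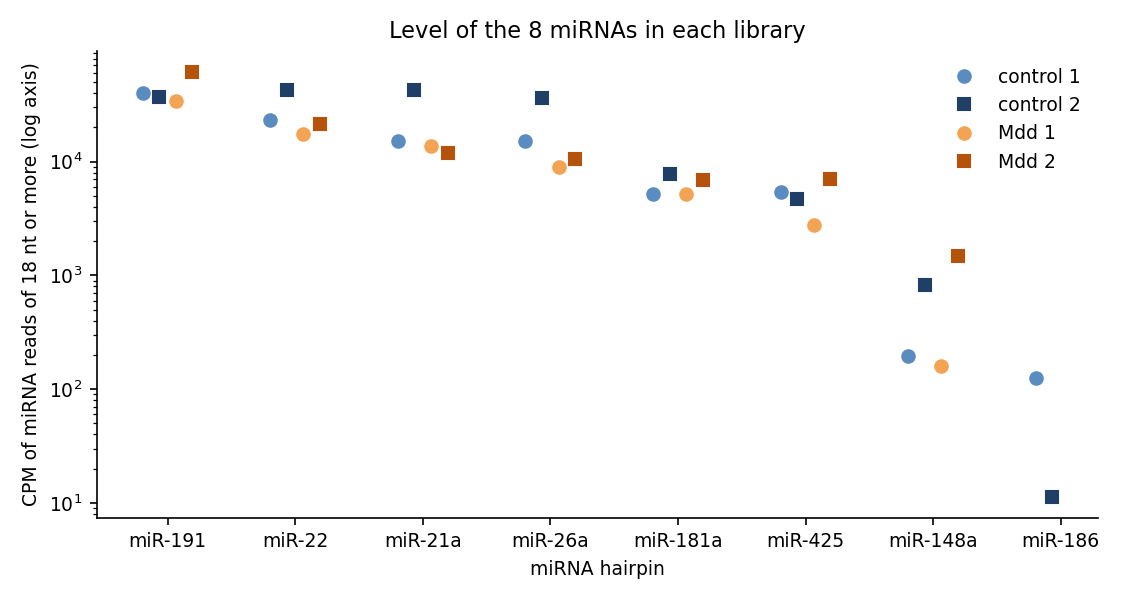
Level of each of the 8 hairpins in CPM of miRNA reads (log axis), with 1 point per library (blue: control 1 and 2, orange: Mdd 1 and 2); values of 0 (miR-186 in both Mdd libraries) are not drawn. Control 2 is the highest library for miR-22, miR-21a and miR-26a, and Mdd 2 for miR-191, miR-425 and miR-148a.

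No member passed the test of Mdd against control. Of the 8 hairpins, 7 had enough reads to be tested, and 0 of these 7 passed an adjusted p of 0.05 in edgeR's quasi-likelihood test (Benjamini-Hochberg over 236 labels), 0 had an unadjusted p under 0.05, and 0 passed in DESeq2. Over all 236 labels, 0% passed in edgeR, 4.66% had an unadjusted p under 0.05 and 2.97% passed in DESeq2. The edgeR test had little power here. In counts simulated with 1 common dispersion for all labels, 0.846 as estimated from these libraries, it called 0 of 99 labels with a true log2 change of 2 in size. With a change of 4 it called 4 of 96. The members' own dispersions were not used, so these figures describe the labels as a whole and not each member. That no member passed therefore does not show that the members were unchanged. The members' median log2 fold change was -0.08, with 5 negative and 2 positive, beside a median of -0.04 and 52.1% negative over all labels tested.

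miR-26a, which restrains cell cycle genes in many tissues, had the largest fold change in size, -1.42 ± 0.75 on the log2 scale (SE, n = 2 against 2 libraries; edgeR adjusted p = 0.845). miR-21a, abundant in stromal and immune cells and raised in injury, had -1.19 ± 0.79 (edgeR adjusted p = 0.952). miR-22, abundant in heart and skeletal muscle, had -0.76 ± 0.75 (edgeR adjusted p = 0.992). These 3 of 7 tested hairpins were lower in both Mdd libraries than in both controls, which held for 21.6% of all labels tested, while 16.5% were higher in both. For the other 4 the standard error exceeded the change: miR-191 had 0.34 ± 0.78, miR-425 -0.03 ± 0.69, miR-148a 0.58 ± 1.39 and miR-181a -0.08 ± 0.65, with edgeR adjusted p of 0.992 or higher.

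The 3 lower hairpins rested on the control 2 library. Without it the log2 fold change was -0.12 ± 0.75 for miR-22, -0.11 ± 0.72 for miR-21a and -0.52 ± 0.70 for miR-26a, while miR-191 was at 0.37 ± 0.90 and miR-181a turned to 0.37 ± 0.75. The median over all labels was then 0.32. Scaling matters for the directions too: when counts were set against all reads of at least 18 nt instead of miRNA reads, all 7 hairpins were negative, but so was the median of all labels, at -1.10.

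**Figure D2:**
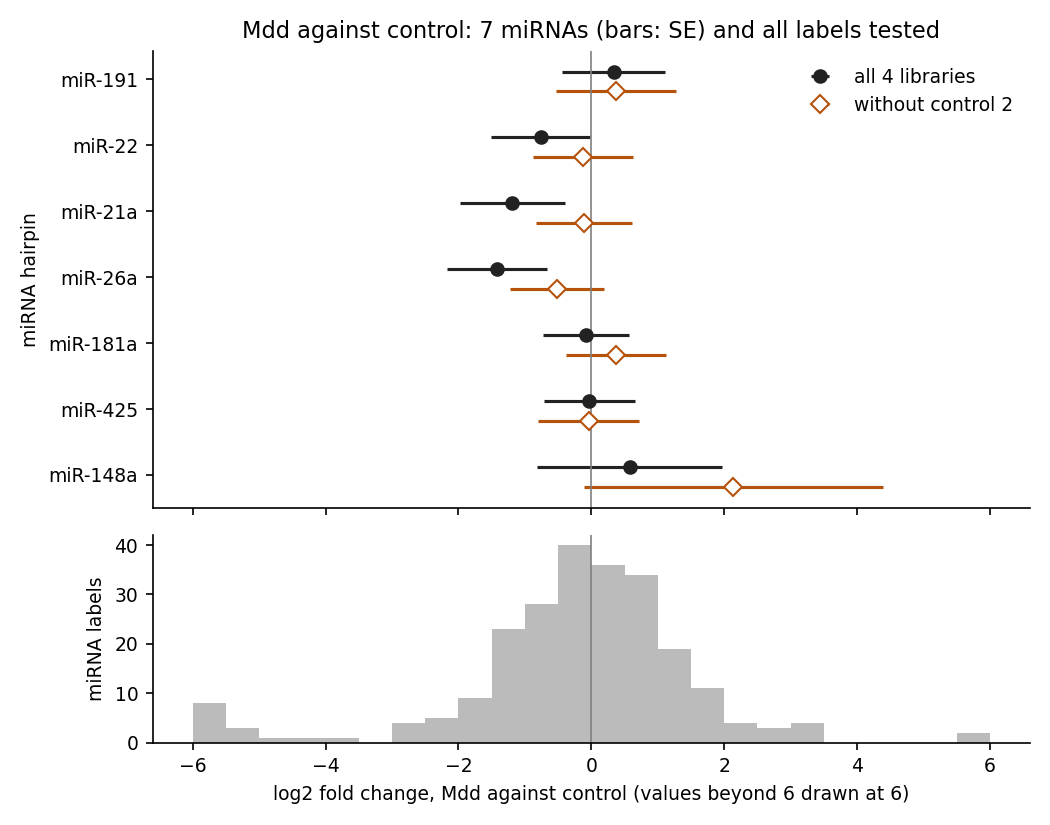
Upper panel: log2 fold change of Mdd against control for the 7 tested hairpins with bars for the SE, from all 4 libraries (black) and without control 2 (open diamonds). Lower panel: the number of miRNA labels at each log2 fold change among all 236 tested. miR-21a moves from -1.19 to -0.11 and miR-26a from -1.42 to -0.52 once control 2 is left out.

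Markers of other cells differed in the same library. The 4 striated muscle hairpins (miR-1a, miR-133a, miR-133b and miR-206, with reads shared by the miR-133 pair) summed to 3880, 65737, 1488 and 989 CPM. All 4 had reads in control 2, and miR-133b was at 0 in both Mdd libraries. miR-126a, the endothelial marker, stood at 4089, 13323, 2332 and 872 CPM. The sum of the 4 erythroid hairpins was lowest in control 2, with 46313, 5718, 59564 and 50111 CPM. It was carried by miR-451a, at 45520, 5608, 57508 and 47782 CPM, whereas miR-144 had 1, 4, 0 and 0 reads. The 3 detected germ cell hairpins of 4 listed (miR-34b, miR-34c and miR-449a, with miR-449c at 0) summed to 223610, 103129, 257239 and 211465 CPM. Markers known from male germ cells were thus present in every library. That sum was carried by miR-34b, at 177672, 47056, 205396 and 147898 CPM. miR-449a was instead highest in control 2, at 34770, 47936, 43755 and 32837 CPM, and miR-34c stood at 11168, 8137, 8088 and 30730 CPM. Fewer cells of a type and less RNA per cell cannot be told apart in such bulk libraries. The part of these cells in the levels of miR-21a, miR-22 and miR-26a was not tested.

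The remaining lists covered leukocytes, hepatocytes, stroma and epithelium. The 3 leukocyte hairpins (miR-223, miR-142a and miR-150) summed to 654, 830, 357 and 223 CPM, with miR-150 at 0 in Mdd 2, and the hepatocyte marker miR-122 stood at 389, 273, 5.03 and 0 CPM. The 3 stromal hairpins (miR-145a, miR-214 and miR-199a) summed to 876, 2991, 1784 and 3276 CPM. The 5 epithelial hairpins summed to 8247, 17293, 7354 and 17115 CPM. Both sums were highest in control 2 and Mdd 2, with overlapping groups. In Mdd 2 the stromal sum was mostly miR-214, at 125, 531, 15.1 and 2096 CPM. Reads shared by miR-199a and miR-199b were outside that sum, as miR-199b was not listed. They were more abundant than the sum, at 15118, 45085, 11677 and 13956 CPM, and highest in control 2. The 2 higher values of miR-148a were in control 2 and Mdd 2. The part of stromal and epithelial cells in them was not tested.

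**Figure D3:**
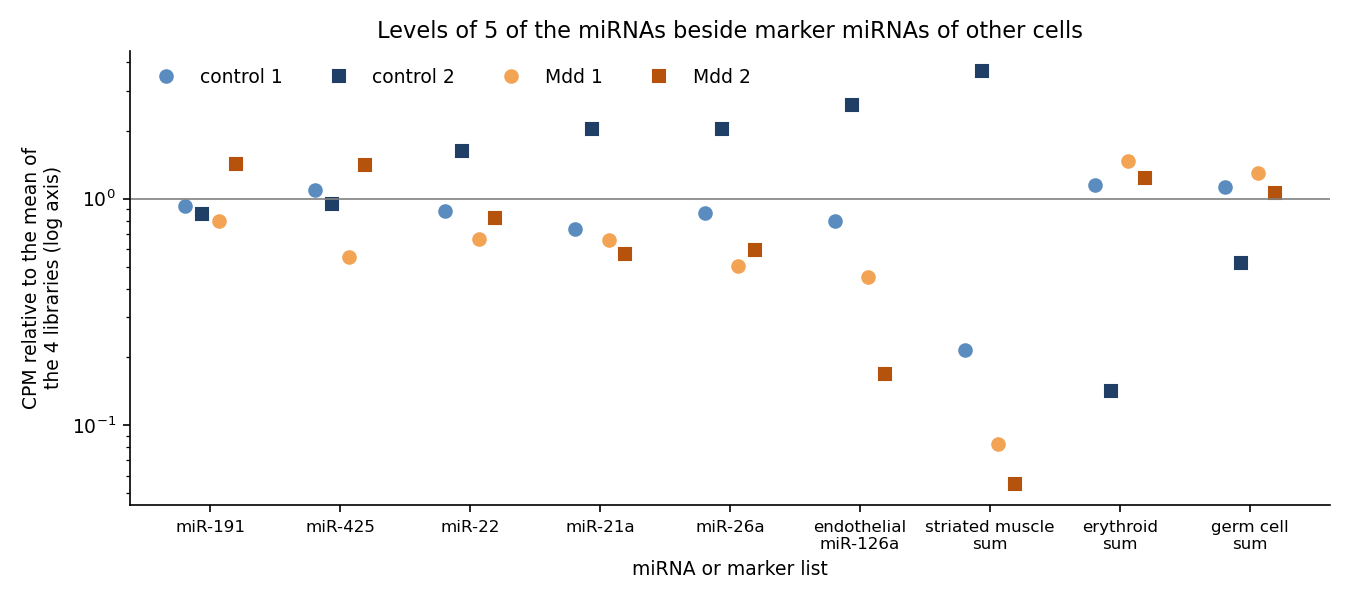
CPM of 5 of the hairpins and of 4 marker lists in each library, divided by the mean of the 4 libraries (log axis; grey line: the mean). Control 2 is above the mean for miR-22, miR-21a, miR-26a, miR-126a and the muscle sum, and below it for the erythroid and germ cell sums. The germ cell sum is carried by miR-34b, and miR-449a within it was highest in control 2.

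miR-191 and miR-425 followed a different course. The distance between 2 hairpins was taken over the 4 libraries on mean-centred log2 of CPM plus 1, among 100 labels with a mean of at least 1000 CPM. By this measure miR-21a and miR-26a were the nearest pair of members, at 0.45, and miR-191 and miR-26a the farthest, at 1.86. miR-191 and miR-425, 384 bases apart, were the second nearest pair of members at 0.58. Among all the labels miR-425 had only rank 10 by nearness to miR-191, and miR-181a, from other chromosomes, was at 0.67. Outside the set, the labels nearest to miR-191 were miR-467a/miR-467b at 0.17, miR-872 at 0.18 and miR-350 at 0.43. These distances rest on 4 libraries and describe them only.

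A list of 6 hairpins that share a seed with the main arm of miR-26a, miR-148a or miR-181a was examined, and each was scarcer by mean level than the member concerned. miR-26b, with the seed of miR-26a, had 207, 1054, 287 and 118 reads and a log2 fold change of -1.32 ± 0.73 (edgeR adjusted p = 0.845). Of the miR-181a relatives, miR-181b had 42, 266, 1 and 28 reads, miR-181c 102, 217, 127 and 102, and miR-181d 33, 61, 0 and 45. The miR-148a relatives were nearly absent, with 1 read of miR-148b in all and 28 reads of miR-152, each in control 2. Of these 6, 4 could be tested and 0 passed in edgeR or DESeq2, with 0 at an unadjusted p under 0.05. Their median log2 fold change was -0.92, with 4 of 4 negative, beside -0.04 and 52.1% negative over all labels tested. Of these 4, miR-181b and miR-181d rest on 1 and 0 reads in Mdd 1.

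Of 17 other broadly expressed hairpins, 12 were tested and 0 passed in edgeR or DESeq2. Of these, miR-320 alone had an unadjusted p under 0.05 in edgeR, as 4.66% of all labels tested had. Their median log2 fold change was -0.64, with 8 negative and 4 positive. The 4 of highest mean level were miR-93, at 10723, 10730, 11008 and 24540 CPM, miR-27b, at 6022, 12478, 2518 and 5808 CPM, miR-151, at 4228, 5119, 3006 and 4340 CPM, and miR-378a, at 807, 9327, 1076 and 3808 CPM. miR-93, from the cluster with miR-25, was highest in Mdd 2 as miR-191 was, and miR-27b and miR-378a were highest in control 2.

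Each hairpin gave nearly all its reads from 1 arm. The 5p arm held 94.5% of miR-191 reads, 91.5% of miR-425, 99.6% of miR-21a, 98.6% of miR-181a and 100% of miR-26a, and the 3p arm held 99.5% of miR-22 and 97.0% of miR-148a. The 3p arm of miR-191 took 2.45%, 2.94%, 12.3% and 3.49% of its reads, so Mdd 1 stood apart from the other 3 libraries. Set against the usual 44 copies, the 841 reads of that arm in Mdd 1 correspond to 19 units of 156, with a 95% Wilson interval of 7.94% to 18.2%. The 3p arm of miR-425 took 8.46%, 11.6%, 4.38% and 6.05%, lower in both Mdd libraries (exact permutation p = 0.333, two-sided, the smallest that 2 against 2 libraries can give).

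Among the 7 tested hairpins, the most-read form of 3 main arms was not the RefSeq one. Those forms are shown with any bases past the RefSeq end in capitals.
miR-191-5p, 1 base shorter: caacggaaucccaaaagcagcu
miR-425-5p, 2 bases longer: aaugacacgaucacucccguugaGU
miR-21a-5p, 1 base longer: uagcuuaucagacugauguugaC
The shorter form of miR-191-5p made up 74.4%, 60.6%, 70.0% and 71.5% of the genome-matched reads of its arm, against 4.81%, 7.34%, 7.91% and 3.13% for the RefSeq form. The longer form of miR-425-5p made up 60.5%, 66.4%, 35.9% and 64.4%, and that of miR-21a-5p 79.1%, 71.0%, 63.5% and 78.0%. These forms led their arm in every library, though by less in Mdd 1 for miR-425. The added bases are templated, since they match the hairpin. miR-186-5p had 9 reads of a form 2 bases shorter, all in control 1, and 3 reads of the RefSeq form, all in control 2.

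In the main arms of the other 4 tested hairpins the RefSeq form led in each library. It made up 100%, 73.8%, 96.9% and 91.3% of miR-148a-3p, from at most 206 reads, 76.3%, 88.4%, 73.1% and 76.2% of miR-22-3p and 86.0%, 81.2%, 89.7% and 85.6% of miR-26a-5p. For miR-181a-5p it was 55.9%, 57.6%, 81.5% and 57.0%, with Mdd 1 again apart from the rest. Forms of miR-181a-5p with a shorter 3′ end were 35.0%, 35.3%, 13.0% and 30.9%, lower in both Mdd libraries (exact permutation p = 0.333, two-sided). A changed 5′ end, which moves the seed, made up 1.68%, 1.79%, 2.64% and 1.77% of the reads of all main arms together, a figure set mostly by the deepest arms. It was more frequent in miR-425-5p, at 9.52%, 7.19%, 23.9% and 8.37%, with Mdd 1 the highest. In miR-181a-5p it was 0.28%, 5.61%, 5.47% and 8.56%, with overlapping groups.

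**Figure D4:**
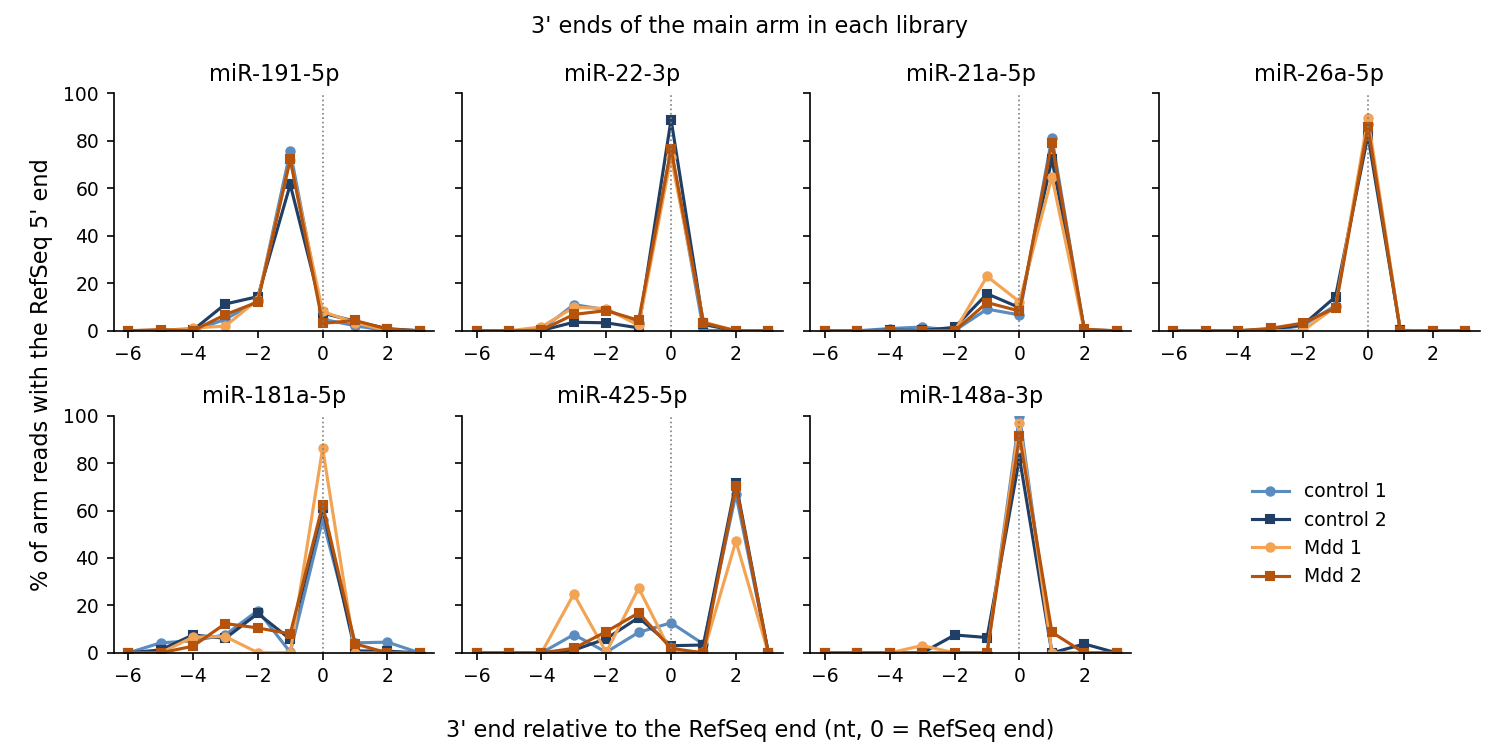
Share of reads at each 3′ end, in nt from the RefSeq end (dotted line at 0), for the main arm of 7 hairpins and 4 libraries, among reads with the RefSeq 5′ end. The peak lies at -1 for miR-191-5p, at 1 for miR-21a-5p, at 2 for miR-425-5p and at 0 for the other 4.

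The 3p arm of miR-425 had another 5′ end than RefSeq in 100% of its 241 reads. Its most-read form starts 2 bases upstream and so has another seed, shown in capitals in each.
miR-425-3p, RefSeq: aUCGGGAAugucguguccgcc
miR-425-3p, most read: cCAUCGGGaaugucguguccg
This form had 0, 77, 13 and 40 reads, and no read carried the RefSeq 5′ end.

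Reads with a tail that the hairpin does not encode were found outside the miRNA annotation. They were sought as 1 to 3 bases added to at least 18 templated bases, in rows with no genome match. The authors' table labelled 95.7% of these 7748 reads as piRNA and left 4.35% without annotation, so they are missing from the hairpin counts above. They make up 8.77% of all reads of the 8 hairpins once added. U alone formed 76.6% of the tailed reads and A alone 16.0%.

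miR-191 carried most of them, 4654 reads, of which 92.6% had tails of U alone. The leading tailed form is the 22-base form with 1 added U, in capitals, and is shown beside the leading tailed forms of miR-425, miR-26a and miR-181a.
miR-191-5p with a U: caacggaaucccaaaagcagcuU
miR-425-5p with a U: aaugacacgaucacucccguugU
miR-26a-5p with a U: uucaaguaauccaggauaggcuU
miR-181a-5p with an A: aacauucaacgcugucggugagA
The miR-191 form had 530, 1022, 1419 and 772 reads, 3743 in all, and the same form with an A had 144. For scale, reads of the RefSeq length that differed from miR-191-5p by 1 base at any of positions 1 to 22, counted from the 5′ end, numbered 31.

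Tailed reads made up 17.1%, 12.4%, 20.8% and 13.4% of miR-191-5p, with overlapping groups. In miR-425-5p they made up 2.99%, 8.73%, 21.6% and 14.2%, higher in both Mdd libraries. The means were 5.86% ± 4.06 in control and 17.9% ± 5.18 in Mdd (SD, n = 2 each; exact permutation p = 0.333, two-sided). In miR-26a-5p they made up 8.36%, 9.18%, 11.5% and 17.5%, again higher in both Mdd libraries, with means of 8.77% ± 0.58 and 14.5% ± 4.25 (SD, n = 2 each; exact permutation p = 0.333, two-sided). With reads divided by the usual copies, the miR-425-5p share in Mdd 1 rests on 3 of 15 units, with a 95% Wilson interval of 7.05% to 45.2%, and that of miR-26a-5p on 5 of 46, with 4.73% to 23.0%. Each of these Mdd 1 intervals overlaps the control libraries' intervals, and so does that of miR-425-5p in Mdd 2, 9.03% to 22.6%. For miR-26a-5p in Mdd 2 it is 12.6% to 23.9%, from 30 of 171 units. That overlaps control 1, at 4.94% to 13.3%, but not control 2, at 7.55% to 11.0%. All these intervals cover counting error only.

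Tails of A alone made up 79.2% of the tailed reads of miR-181a, 65.3% of miR-21a and 55.9% of miR-22. The miR-22 figure rests on control 2. On miR-22-3p, tails of A alone had 1, 178, 0 and 0 reads, and tails of U alone 0, 4, 53 and 0. By share of reads with any tail, miR-181a-5p stood at 7.33%, 2.23%, 7.29% and 9.04% and miR-21a-5p at 5.61%, 2.66%, 0.71% and 3.06%. miR-22-3p stood at 0.12%, 2.25%, 1.53% and 0.20%. In miR-186-5p, 11 tailed reads in control 2 stood beside 3 without a tail, too few to compare. Over all main arms tailed reads were 9.59%, 6.36%, 12.0% and 10.3%, a difference of 3.18 percentage points, Mdd minus control (exact permutation p = 0.333, two-sided). That difference was 1.56 without control 2. It was -7.07 with distinct sequences as the unit, counting only those with at least the usual copies, 7, 10, 44 and 7 reads. This cut differed between libraries, and its part in the turned sign was not tested. The pooled share is set mostly by the deepest arms, and their mix differed between libraries. Reads without a tail were 2830, 9474, 6007 and 5566 for miR-191-5p and 1094, 11154, 2659 and 1109 for miR-21a-5p. The part of this mix in the difference was not tested.

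**Figure D5:**
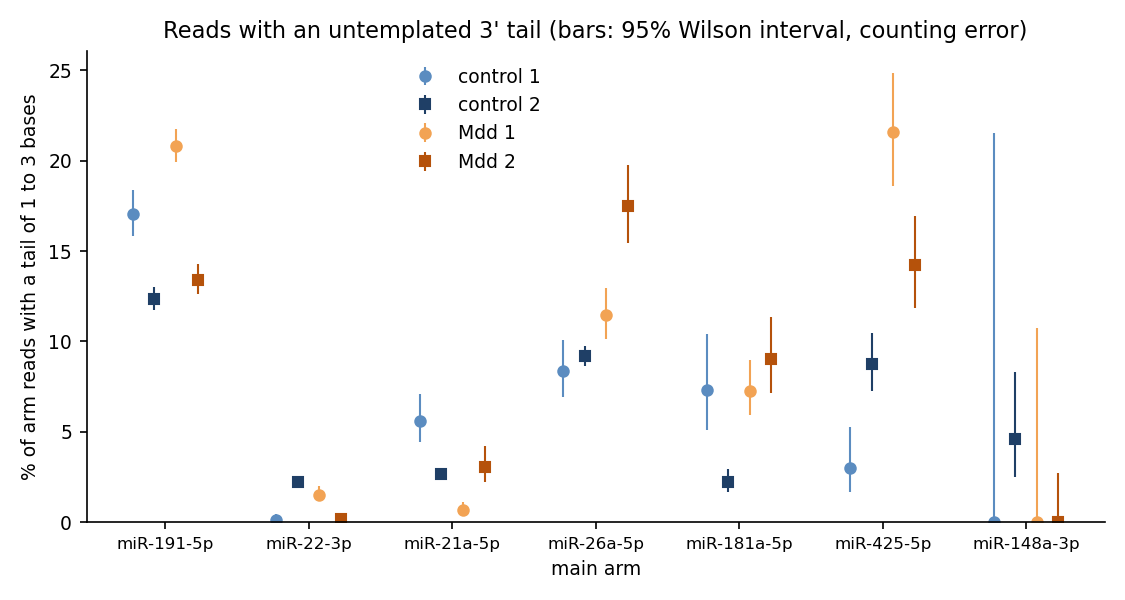
Share of main-arm reads with an untemplated tail of 1 to 3 bases in each library, for 7 hairpins, with bars for the 95% Wilson interval of reads, which covers counting error only. Both Mdd libraries lie above both controls for miR-425-5p and miR-26a-5p, and the groups overlap for the other 5 arms.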

How the data were processed

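Mouse small RNA libraries, 2 control and 2 Mdd, were taken as deposited: per the file headers, each row is a distinct sequence (15 to 45 nt) to which the authors gave a raw read count, a length, a genome mark and an annotation. The submitters' processing notes name mm9 and DESeq2. The aligner and the annotation databases were not given in the sources used here. Groups came from the treatment label.

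Files were joined by sequence, an annotation from an earlier library taking precedence, and rows of at least 18 nt were summed per hairpin without copy numbers. No member shared reads with another hairpin label. Counts were tested with edgeR 4.0.16 in R 4.3.3 (quasi-likelihood, TMM, filterByExpr, two-sided, Benjamini-Hochberg over 236 labels, threshold 0.05), with DESeq2 1.42.0 as an alternative. The SE was obtained as |log2 fold change| over the square root of the F statistic. Shares were compared by exact permutation of libraries. Arms and tails were placed by sequence on RefSeq hairpins, hairpin positions are those of GRCm38.p6, and no coordinates were converted from mm9. The scripts were tested on simulated data. Tables used Python 3.11.15, pandas 2.3.3 and scipy 1.17.1.

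miRNA reads of at least 18 nt numbered 71902 to 263748 per library, and the floor for a count of 0 is 3 reads. All 8 hairpins were named, with their most-read forms, the 6 seed relatives, 4 of 17 other broadly expressed hairpins by mean level and any past the threshold, and the 3 labels nearest to miR-191. Members and lists were chosen with earlier results of these data known. Alternatives were other scalings, filters, lengths, annotation and genome marks, the replicate number as a block and each library left out. Copy-scaled counts, U-only and 1-base tails and distinct sequences as the unit were chosen after seeing the data.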

Additional observations from a re-analysis of the deposited data

How the results depend on the processing

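No member passed the threshold in edgeR or DESeq2 under any of the 17 alternatives run, and miR-21a, miR-22 and miR-26a were negative in all of them, from -2.27 to -0.11, -1.87 to -0.12 and -2.55 to -0.52 on the log2 scale. The signs of the near-zero hairpins turned. miR-425 was 0.049 with RLE scaling and with DESeq2, 0.059 with no filter and with a mean CPM of at least 10, 0.19 with all lengths, and from -0.68 to 0.44 with 1 library left out, the highest without Mdd replicate 1. miR-181a was 0.067 with RLE scaling, 0.066 with DESeq2, 0.050 with no filter, 0.051 with a mean CPM of at least 10, 0.12 with all lengths, and from -0.47 to 0.37 with 1 library left out, being positive without control replicate 2 (0.37) and without Mdd replicate 1 (0.035). miR-191 was -0.73 and miR-148a -1.02 with the library size of all reads. miR-148a ran from -1.47 to 2.14 with 1 library left out, negative without Mdd replicate 2 (-1.47) and without control replicate 1 (-0.19), and highest without control replicate 2. The cause was not tested. Joint names held no member, so counting them changed nothing.

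Over all labels, against 0 in edgeR, 5 passed with the library size of all reads, 7 with DESeq2, 6 with no filter, 6 with a mean CPM of at least 10, 1 with all lengths, and 0 to 16 with 1 library left out (7 without control replicate 1, 0 without control replicate 2, 5 without Mdd replicate 1, 16 without Mdd replicate 2). Among the seed relatives and other broadly expressed hairpins, 0 to 1 passed with 1 library left out: miR-181b, at -6.94 ± 2.04 (edgeR adjusted p = 0.0222), without Mdd replicate 2, where the lone Mdd library is assumed to vary like the controls and has 1 read. With the replicate number as a block 4 labels passed and 0 members, with miR-191 at 0.29 and miR-26a at -1.23. The deviations of same-numbered libraries correlated at -0.04 over 236 labels. With 2 libraries per group both pairs give this same value, so it cannot decide whether same-numbered libraries were handled together. The difference in tailed reads was -7.07 percentage points with distinct sequences of at least the usual copies as the unit, against 3.18 with reads. It kept its sign in the other 7 alternatives. Depth limits miR-186 and miR-148a most, and the 44 usual copies limit every share of Mdd replicate 1.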
